A study of Mus musculus with 18 samples.

Results

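Vnn1 and Vnn3 encode vanins, and Pank1, Pank2, Pank3, Pank4, Ppcs, Ppcdc and Coasy encode the enzymes and relatives of the enzymes that make coenzyme A. These 9 genes, of 47643 in the count table, are described here across 18 RNA-seq libraries of MPC3, which is a cell line from mouse prostate cancer. They were chosen on the measured fall of Vnn1 with both hairpins against Rnf185, so the Vnn1 difference between hairpin and control libraries is given as a description, with no test. The other 8 genes were listed for their role in the same pathway. All 9 had enough counts to enter the fit over 14309 genes.

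The control group is labelled plko with the treatment Control, and the shRNF185.1 and shRNF185.3 groups are labelled RNF185 KD, each named for its short hairpin RNA, a vector-borne RNA that lowers the messenger it matches. Each group holds 6 libraries of the same line, all carrying a plko or hairpin label, with numbers 1 and 2 in batch 1, 3 and 4 in batch 2, and 5 and 6 in batch 3. Rnf185 encodes a ubiquitin ligase of the endoplasmic reticulum membrane. The labels give no time after transduction and do not say whether the libraries come from separate cultures. The p-values therefore measure the spread between these libraries, which may be technical. They come from counts already adjusted for batch, in a fit with no batch term. Part of the spread was thus removed beforehand, and p-values can be too small.

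Coenzyme A is the carrier of acyl groups in fatty acid oxidation, lipid synthesis and the citric acid cycle. Cells build it from the vitamin pantothenate. Pantothenate kinases (Pank1, Pank2 and Pank3) add the first phosphate and set the pace of the route, Ppcs joins cysteine to the product, Ppcdc removes a carboxyl group, and the bifunctional Coasy adds the nucleotide part and the last phosphate. Pank4 resembles the kinases but lacks their activity and carries a phosphatase domain. Vanins work at the other end: they are pantetheinases, which split pantetheine, a breakdown product of coenzyme A, into pantothenate and the small thiol cysteamine. Vnn1 is held on the outer cell surface by a lipid anchor and is known from kidney, liver and gut, and Vnn3 is known from myeloid cells.

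Vnn1 and Vnn3 lie side by side in the same orientation on chromosome 10 of GRCm38, with Vnn1 (ENSMUSG00000037440) at chr10:23894688-23905343 and Vnn3 (ENSMUSG00000020010) at chr10:23851462-23869843, both on the plus strand. Since the levels of these neighbours are compared below, the most alike stretch of their coding sequences is shown. It is 75 bases long like the reads, was compared without gaps, and has the bases that differ in capitals.
Vnn1, bases 265 to 339 of the coding sequence, chr10:23897341-23897415: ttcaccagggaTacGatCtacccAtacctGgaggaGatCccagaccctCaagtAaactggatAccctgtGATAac
Vnn3, bases 262 to 336 of the coding sequence, chr10:23851955-23852029: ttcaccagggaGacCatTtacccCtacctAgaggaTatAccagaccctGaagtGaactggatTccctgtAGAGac
Even here 61 of 75 bases match and 14 differ. None of the annotated transcript windows of this length in Vnn1 or Vnn3 occurred in another gene, so reads without errors can be assigned to one or the other.

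The pantothenate kinase genes also carry microRNA genes in their introns, on the strand of the host: Mir107 in Pank1 (chr19:34820687-34820773), Mir103-2 in Pank2 (chr2:131288052-131288137) and Mir103-1 in Pank3 (chr11:35782396-35782481). Their mature 3p microRNAs are shown because they link 3 of the 4 Pank genes by a single seed, bases 2 to 8, which is in capitals. The sequences are from RefSeq for GRCm38.p6.
mmu-miR-107-3p, from the Pank1 intron: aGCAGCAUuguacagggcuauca
mmu-miR-103-3p, from the Pank2 and the Pank3 intron: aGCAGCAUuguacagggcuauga
These 23-base RNAs are not counted in polyadenylated gene libraries, and the values below are those of the host messengers.

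The libraries held 22027395 to 43379662 counts each. Levels are given as CPM, counts scaled to library size with TMM factors, from the deposited table. Those of the cell type markers were instead computed from the deposited counts, also with TMM factors. The targeted gene, Rnf185, checked the labels: it stood at 35.9 ± 1.96 CPM (SD, n = 6) in control, 5.81 ± 0.582 with shRNF185.1 and 5.80 ± 0.546 with shRNF185.3, and every hairpin library lay below every control. Of the markers of prostate luminal cells, Hoxb13 was present in every library, while Pbsn had 0 counts in all 18. The summed level of 5 epithelial markers moved with the groups, at 1689 to 2531 CPM in control, 996 to 1747 with shRNF185.1 and 1160 to 1367 with shRNF185.3. Within that list Epcam had at most 7 counts in any library, and Cdh1 averaged 35.1, 9.29 and 8.01 CPM in the order control, shRNF185.1, shRNF185.3. Of 4 mesenchymal markers, Pdgfrb rose with both hairpins (157, 201 and 236 CPM, edgeR adjusted p = 0.00115 and 9.29e-06) and Pdgfra with shRNF185.3 (89.6, 89.6 and 123 CPM, edgeR adjusted p = 0.997 and 9.31e-05), while Vim (3201, 3347 and 3360 CPM) and Cdh2 (5.44, 5.14 and 4.76 CPM) passed with neither. In bulk libraries such as these, fewer cells that express a gene and less RNA of it per cell cannot be told apart, and the part of these shifts in the results below was not tested.

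Vnn1, the membrane pantetheinase, was about 4 to 7 times lower in the hairpin libraries than in control. In control it ranged from 6.53 to 40.1 CPM with a median of 23.3. With shRNF185.1 it ranged from 2.78 to 8.61 with a median of 4.63, and with shRNF185.3 from 1.52 to 5.36 with a median of 3.07. All 6 shRNF185.3 libraries lay below the lowest control library, and 4 of the 6 shRNF185.1 libraries did, so the control and shRNF185.1 ranges overlapped. Over all genes tested, 5.77% had all 6 shRNF185.1 libraries below every control and 5.7% had all 6 shRNF185.3 libraries there. The share with 4 of the 6 shRNF185.1 libraries there was not counted. The means were 22.6 ± 12.4, 5.04 ± 2.26 and 3.25 ± 1.35 CPM (SD, n = 6), from 208 to 1178 counts per library in control, 78 to 223 with shRNF185.1 and 49 to 129 with shRNF185.3. The fitted log2 fold change was -2.16 (SE 0.39) with shRNF185.1 and -2.81 (SE 0.40) with shRNF185.3, or fitted changes of -77.7% and -85.7%.

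The control libraries were not uniform, and their spread followed the batch. In batch 1 the control libraries held 30.3 and 19.0 CPM of Vnn1, in batch 2 they held 40.1 and 27.5, and in batch 3 they held 12.0 and 6.53. The hairpin libraries showed no such fall in batch 3: shRNF185.1 held 8.61 and 4.01 CPM there, and shRNF185.3 held 5.36 and 3.12. Within batches 1, 2 and 3 the log2 fold change was -2.41 (SE 0.50), -3.02 (SE 0.51) and -0.54 (SE 0.49) with shRNF185.1. With shRNF185.3 it was -2.93 (SE 0.52), -3.91 (SE 0.54) and -1.12 (SE 0.51). The direction was therefore the same in every batch, and the size in batch 3 was the smallest with each hairpin. The test of whether the hairpin effects differ between batches (edgeR quasi-likelihood F test of the 4 interaction terms) gave F = 4.85 for Vnn1, which did not pass after Benjamini-Hochberg adjustment over all genes (edgeR adjusted p = 0.0868). None of the 9 genes passed it, against 9.81% of all genes tested, and the other 8 had adjusted p-values of 0.402 to 0.932 in the same edgeR test. Unadjusted, Vnn1 alone of the 9 was under 0.05, limma-voom also called 0 of 9 (adjusted p = 0.0914 for Vnn1), and without a filter on low counts edgeR called 2 of 9, with Vnn1 at an adjusted p of 4.76e-29. This interaction test was set up after a smaller Vnn1 difference in batch 3 had been seen in these data. Its values for Vnn1 are therefore a description and do not set Vnn1 apart from the other genes. The counts had already been adjusted for batch by the authors, and whether that adjustment knew the groups is not given in the sources used here. Without batch 3 the log2 fold changes of Vnn1 were -2.73 and -3.43, and without batch 2 they were -1.63 and -2.18.

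Vnn3, the neighbouring pantetheinase gene, was expressed far lower and did not pass the test with either hairpin. It ranged from 0.377 to 2.27 CPM in control (median 1.34), from 0.388 to 2.39 with shRNF185.1 (median 1.43) and from 0.465 to 1.62 with shRNF185.3 (median 0.830). The 3 ranges overlapped almost fully. In counts these are 12 to 60, 10 to 62 and 13 to 39 per library, so a single library fixes the level only loosely. The log2 fold change was 0.09 (95% interval -0.79 to 0.98, edgeR adjusted p = 0.892) with shRNF185.1 and -0.60 (-1.53 to 0.33, edgeR adjusted p = 0.338) with shRNF185.3. These intervals still allow a difference of nearly the size of 1 log2 unit in either direction with shRNF185.1, and a larger one downward with shRNF185.3. They do not reach the differences measured for Vnn1 over all batches (-2.16 and -2.81). They include those of Vnn1 in batch 3 (-0.54 and -1.12), but the intervals cover all batches. Within batches 1, 2 and 3 Vnn3 stood at 0.07 (SE 0.77), -0.62 (SE 0.77) and 1.01 (SE 0.80) with shRNF185.1. With shRNF185.3 it stood at -0.83 (SE 0.82), -1.40 (SE 0.81) and 0.54 (SE 0.83), so its sign changed between batches. Vnn1 was picked for its fall, and no test of Vnn1 against Vnn3 was run.

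The ratio of Vnn1 to Vnn3 within a library put both facts in 1 number. It was 9.36 to 21.0 in control (median 17.5), 2.69 to 7.80 with shRNF185.1 (median 3.58) and 3.06 to 5.08 with shRNF185.3 (median 3.48). No hairpin library reached the lowest control ratio, including those of batch 3, where the Vnn1 levels themselves overlapped. This ratio uses the contrast by which Vnn1 was picked and is a description. Over all tested genes but Vnn3, with Vnn1 included, such ratios lay in all 6 libraries below every control for 0.182% with shRNF185.1 and 0.168% with shRNF185.3. Vnn3 itself ranged from 0.377 to 2.27 CPM in control, so genes that do not follow it within the groups can hardly separate in this ratio. These shares are therefore no test of Vnn1. The highest hairpin ratio, 7.80 in shRNF185.1 replicate 4, rests on 10 counts of Vnn3.

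**Figure D1:**
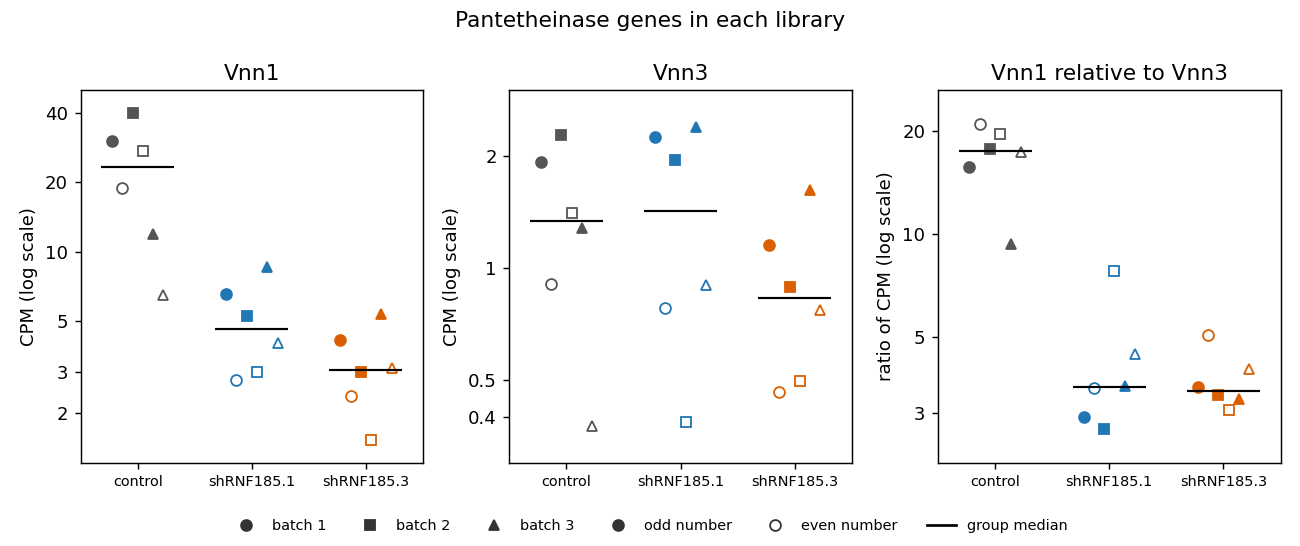
Level of Vnn1 and of Vnn3 in CPM and their ratio in each of the 18 libraries, on log axes, with batch by symbol and odd or even replicate number by fill; lines are group medians. Vnn1 is lower in the hairpin groups, with the control libraries of batch 3 (12.0 and 6.53 CPM) closest to them, while the Vnn3 ranges overlap and the ratio separates control (9.36 or more) from both hairpins (7.80 or less).

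Inside the groups the vanins moved together. Each batch holds an odd-numbered and an even-numbered library of each group, which makes 9 pairs. Vnn1 was higher in the odd-numbered library in 9 of 9 pairs, by a median ratio of 1.75 (1.46 to 2.37), and Vnn3 was higher in 9 of 9 pairs by a median ratio of 2.49 (1.62 to 5.03). Of all genes tested, 5.36% were higher in the odd-numbered library in every pair and 5.06% were lower in every pair. Pank4 was among the latter, lower in the odd-numbered library in 9 of 9 pairs with a median ratio of 0.856 (0.784 to 0.932). The labels do not say what the odd and even numbers stand for. For the other genes the odd library was higher in 8 pairs for Pank1 and for Pank3, 6 for Coasy, 5 for Ppcs, 3 for Pank2 and 2 for Ppcdc.

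After the group means were taken out, log2 levels of Vnn1 and Vnn3 had a Pearson r of 0.883 and a Spearman rho of 0.915 over the 18 libraries. Without the 2 libraries farthest from the median of Vnn1, control replicates 3 and 6, r was 0.833 and rho 0.888. With the group means left in, r was 0.607 and rho 0.690. These are descriptions over libraries that share batch and numbering. With batch and odd or even number in the model, a setting chosen after this pattern was seen, Vnn3 still did not pass (edgeR log2 fold change -0.02 with shRNF185.1 at an adjusted p of 0.975, and -0.62 with shRNF185.3 at an adjusted p of 0.146).

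**Figure D2:**
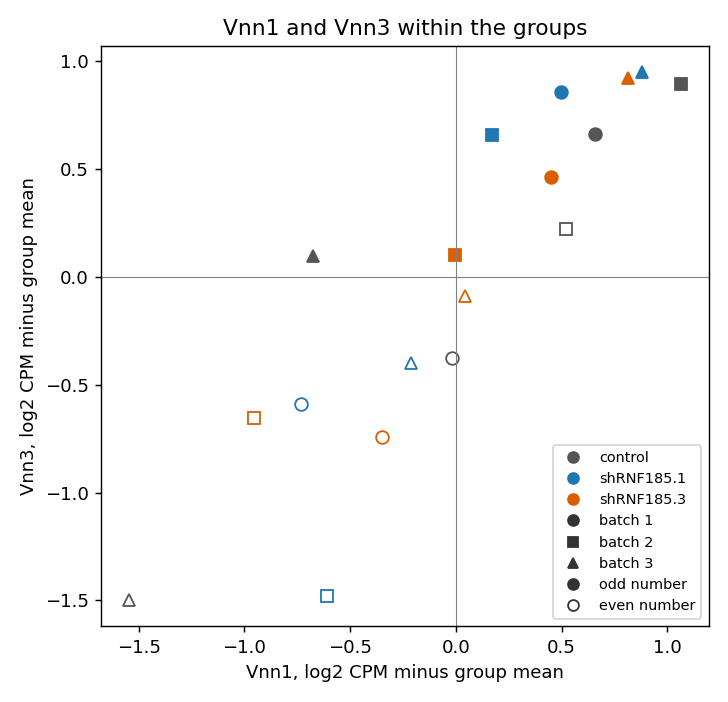
Deviation of each library from its group mean on the log2 CPM scale, Vnn1 on the x axis and Vnn3 on the y axis, with group by colour, batch by symbol and odd or even replicate number by fill. Libraries above the mean in Vnn1 are mostly above it in Vnn3 (r = 0.883 over 18 libraries). Within each group and batch the odd-numbered library (filled) lies up and right of the even-numbered one.

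Among 11695 genes with a mean count of at least 50, those most alike to Vnn1 in log2 CPM over the 18 libraries were Clu (r = 0.980), Ctsh (0.966), Fam213a (0.964), Btc (0.959) and Padi4 (0.952). Clu encodes clusterin, a secreted chaperone, and averaged 213, 80.3 and 70.5 CPM in the order control, shRNF185.1, shRNF185.3. Ctsh encodes the lysosomal protease cathepsin H and averaged 9.33, 4.44 and 3.72 CPM. Fam213a encodes a peroxiredoxin-like protein and averaged 15.1, 6.75 and 6.21 CPM. All 3 were therefore lower in both hairpin groups. Btc, the growth factor betacellulin, averaged 15.8, 7.39 and 5.64 CPM, and Padi4, a peptidylarginine deiminase, averaged 66.7, 30.4 and 29.1 CPM. The mean level of each of these 5 genes stood less far below control than that of Vnn1. These likenesses include the group difference by which Vnn1 was picked.

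By the likeness of deviations from group means, which leaves that difference out, the first 5 were Npnt (r = 0.951), Zmynd15 (0.945), Clu (0.943), Ddit3 (0.941) and Jam2 (0.938). Clu was in both sets. Npnt encodes the matrix protein nephronectin and averaged 40.5, 6.92 and 10.3 CPM in the order control, shRNF185.1, shRNF185.3. Its log2 fold changes were -2.55 with shRNF185.1 and -1.98 with shRNF185.3, against -2.16 and -2.81 for Vnn1, so it stood further below control with shRNF185.1. Ddit3, the stress-response transcription factor CHOP, averaged 15.9, 19.1 and 21.1 CPM and passed the test with neither hairpin (edgeR adjusted p = 0.310 and 0.107). A gene could thus follow Vnn1 inside the groups without standing lower in the hairpin libraries. Vnn3, with too few counts to be ranked, had the r of 0.883 given above.

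The pantothenate kinases, which start coenzyme A synthesis, differed from control by at most 0.15 on the log2 scale. Pank2 (ENSMUSG00000037514, chr2:131262495-131299188), the kinase whose human counterpart is mutated in a neurodegeneration with brain iron, ranged from 44.8 to 47.8 CPM in control (median 46.3), from 49.1 to 53.5 with shRNF185.1 (median 51.0) and from 44.1 to 51.1 with shRNF185.3 (median 45.7). All 6 shRNF185.1 libraries lay above every control library, as in 7.02% of genes tested, and the shRNF185.3 range overlapped the control range. Pank2 rose with shRNF185.1 by a log2 fold change of 0.15 (SE 0.04, 95% interval 0.06 to 0.24, edgeR adjusted p = 0.0152). It did not pass with shRNF185.3 (0.03, edgeR adjusted p = 0.696). The difference between the hairpins, -0.12, did not pass either (edgeR adjusted p = 0.0723), so the response to the hairpins is not shown to differ. The rise was not called without batch 1 (edgeR adjusted p = 0.154), without batch 2 (0.0677) or without batch 3 (0.0576), nor with no filter on low counts (0.0602) or with a correction for base composition and length (0.0674). Of the Pank2 transcript windows of read length, 19.9% also occur in Rnf24, which overlaps Pank2 exons on the opposite strand, or in Gm14233 on the same strand. Rnf24 had a log2 fold change of 0.01 with shRNF185.1 (edgeR adjusted p = 0.932) and rose by 0.25 with shRNF185.3 (edgeR adjusted p = 0.00626). Whether counting used the strand is not given in the sources used here, so reads in the overlap may have been split between them.

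Pank3 (ENSMUSG00000018846, chr11:35769484-35791285) had the highest level per length of the 9 genes and varied most among the kinases. It ranged from 86.7 to 138 CPM in control (median 108), 99.3 to 136 with shRNF185.1 (median 113) and 92.3 to 129 with shRNF185.3 (median 95.2). The groups overlapped, and the log2 fold changes of 0.08 (95% interval -0.14 to 0.31) and -0.10 (-0.32 to 0.13) did not pass the edgeR test (adjusted p = 0.594 and 0.538). Pank1 (ENSMUSG00000033610, chr19:34806940-34879455) averaged 17.9 ± 1.42, 17.4 ± 1.23 and 17.7 ± 1.39 CPM in control, shRNF185.1 and shRNF185.3, with log2 fold changes of -0.04 and -0.02 (edgeR adjusted p = 0.680 and 0.892). Its 95% intervals, -0.18 to 0.10 and -0.15 to 0.13, bound any difference to a small one. Pank4 (ENSMUSG00000029056, chr4:154964123-154980938), the relative without kinase activity, ranged from 23.0 to 29.4 CPM in control, 25.2 to 31.1 with shRNF185.1 and 22.7 to 28.1 with shRNF185.3. Its log2 fold changes of 0.12 (95% interval -0.04 to 0.28) and -0.07 (-0.23 to 0.09) did not pass (edgeR adjusted p = 0.266 and 0.511). Read-length stretches of Pank1, Pank2 and Pank3 matched each other at no more than 63 of 75 bases, and Pank4 matched them at no more than 48, so reads of these messengers can be told apart.

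Ppcs (ENSMUSG00000028636, chr4:119418530-119422420), the ligase that joins cysteine to phosphopantothenate, was the gene of the synthesis route with the largest difference. It ranged from 7.90 to 10.2 CPM in control (median 9.03), from 7.98 to 9.44 with shRNF185.1 (median 9.21) and from 6.26 to 7.90 with shRNF185.3 (median 7.14). Of the shRNF185.3 libraries, 5 of 6 lay below the lowest control, and the shRNF185.1 libraries all lay inside the control range. Over all genes tested, 5.7% had all 6 shRNF185.3 libraries below every control, and the share with 5 of 6 was not counted. Ppcs fell with shRNF185.3 by 0.36 on the log2 scale (SE 0.08, 95% interval -0.52 to -0.21, edgeR adjusted p = 0.00130), to 0.778 of the control level, with counts of 152 to 254 per library. With shRNF185.1 its log2 fold change was -0.00 (95% interval -0.16 to 0.15, edgeR adjusted p = 0.977). The hairpins differed directly by -0.36 (SE 0.08, edgeR adjusted p = 0.00270). Within batches 1, 2 and 3 the shRNF185.3 difference was -0.33, -0.30 and -0.46. Without batch 3 the call was lost (-0.31, edgeR adjusted p = 0.0546), and so was that between the hairpins (-0.33, edgeR adjusted p = 0.0570). Rnf185 itself averaged 5.81 and 5.80 CPM with the hairpins.

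Ppcdc (ENSMUSG00000063849, chr9:57385095-57440124), the decarboxylase of the next step, moved the other way. It ranged from 7.67 to 10.1 CPM in control (median 9.22), from 8.57 to 9.98 with shRNF185.1 (median 9.49) and from 9.85 to 10.6 with shRNF185.3 (median 10.3). Of the shRNF185.3 libraries, 3 of 6 lay above the highest control, and the ranges overlapped. Over all genes tested, 7.6% had all 6 of these libraries above every control, and the share with 3 of 6 was not counted. Ppcdc rose with shRNF185.3 by a log2 fold change of 0.20 (SE 0.07, 95% interval 0.06 to 0.35, edgeR adjusted p = 0.0339) and did not pass with shRNF185.1 (0.07, edgeR adjusted p = 0.467). The hairpins did not differ by the test (0.13, edgeR adjusted p = 0.246). The call was lost in 12 of 31 alternative settings, among them a fit without control replicate 1 (edgeR adjusted p = 0.0789), fits without control replicate 5 or shRNF185.3 replicate 1, 2 or 6, and a fit without batch 1 (0.318). Of the Ppcdc transcript windows of read length, 7.65% also occur in other genes. Coasy (ENSMUSG00000001755, chr11:101082565-101086619), the enzyme of the closing steps, averaged 28.3 ± 1.09, 27.4 ± 1.90 and 26.0 ± 1.80 CPM. Its log2 fold changes were -0.05 (95% interval -0.16 to 0.07) and -0.12 (-0.23 to -0.00), neither of which passed (edgeR adjusted p = 0.558 and 0.111). For Coasy 4 of 6 shRNF185.3 libraries lay below the lowest control, and over all genes tested 5.7% had all 6 there. The share of genes with 4 of 6 was not counted. With the offset for base composition and length Coasy passed with shRNF185.3 (-0.22, edgeR adjusted p = 0.00245).

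**Figure D3:**
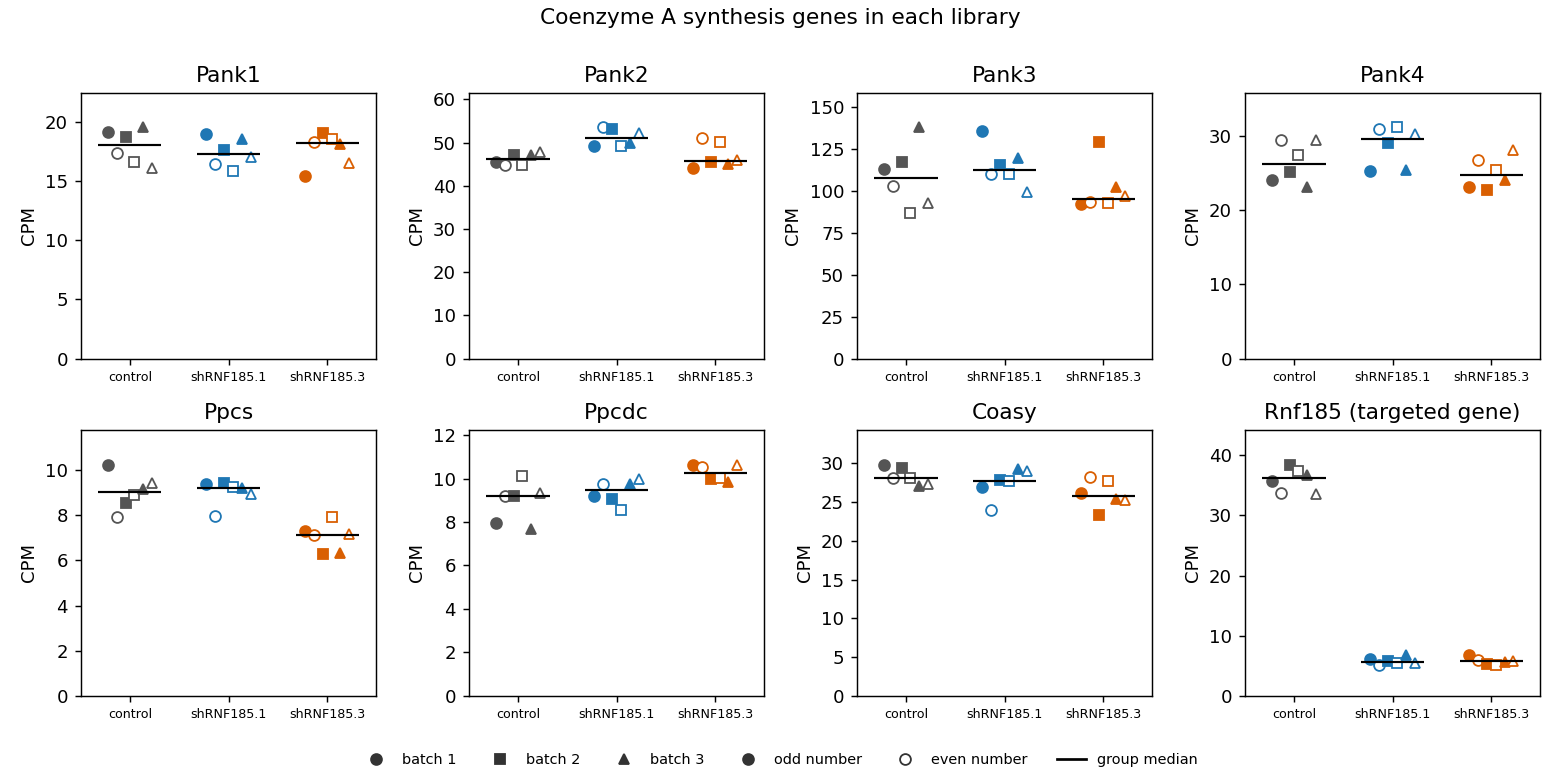
CPM of the 7 synthesis genes and of the targeted gene Rnf185 in each library, on linear axes from 0, with batch by symbol and odd or even replicate number by fill; lines are group medians. Rnf185 separates both hairpins from control, Pank2 lies above control with shRNF185.1, Ppcs lies lower with shRNF185.3 (median 7.14 against 9.03 CPM), and the other panels overlap.

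Of the 8 genes other than Vnn1, 1 passed the test with shRNF185.1, where 28.9% of all genes tested did, and 2 passed with shRNF185.3, where 27.3% did. With the mean of both hairpins against control, 1 of the 8 passed, against 32.9% of all genes: Ppcs, with a log2 fold change of -0.18 (edgeR adjusted p = 0.0345), a call lost in 12 of 31 alternative settings, among them fits without control replicate 1, 5 or 6, shRNF185.1 replicate 2, or shRNF185.3 replicate 3 or 5 (edgeR adjusted p from 0.0510 to 0.106). The share called among these genes was thus no higher than among genes at large. The median log2 fold change over all genes was -0.02 with each hairpin.

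Between the hairpins, 1 of the 9 genes differed, against 14.7% of all genes tested, and it was Ppcs. For Vnn1 the difference of shRNF185.3 from shRNF185.1 was -0.64 (SE 0.41, 95% interval -1.50 to 0.22, edgeR adjusted p = 0.372), a comparison by which the gene was not picked. For Vnn3 it was -0.70 (SE 0.45, edgeR adjusted p = 0.372). The intervals leave room for sizeable differences in both vanins.

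**Figure D4:**
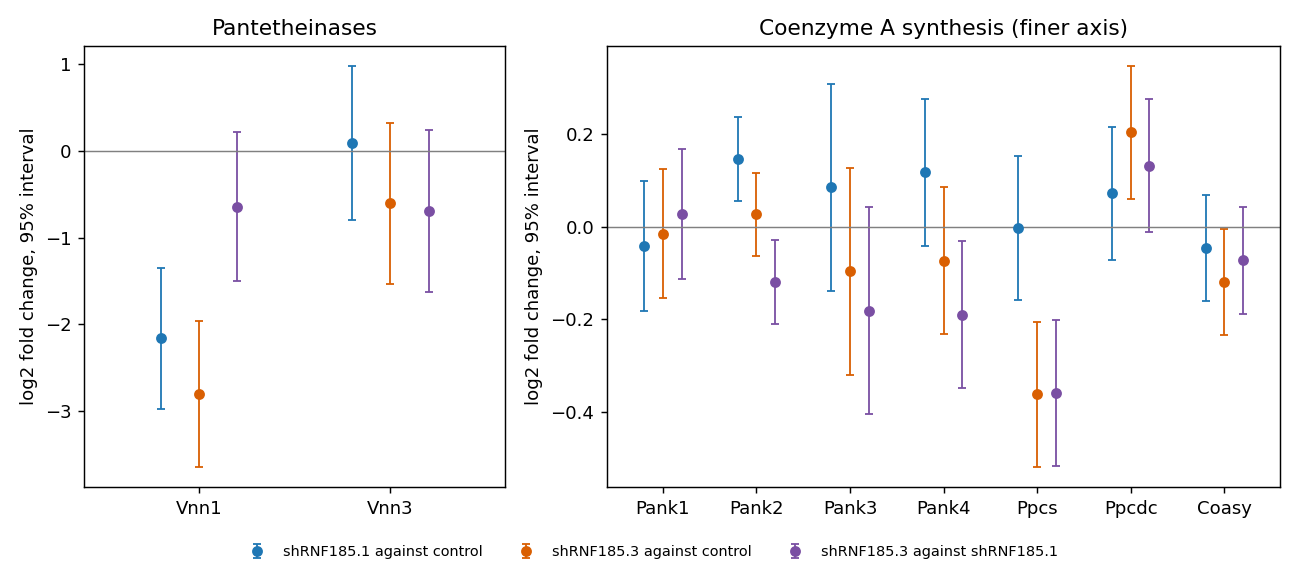
Log2 fold change of each gene with its 95% interval from the edgeR fit, for each hairpin against control and for shRNF185.3 against shRNF185.1 (n = 6 per group), with a finer axis on the right. Vnn1 stands at -2.16 and -2.81 against control, shown as a description, while the synthesis genes stay between -0.36 and 0.20.

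Levels can be set side by side between genes per kilobase of exonic sequence. In control the order in CPM per kilobase was Pank3 (14.7 ± 2.51), Coasy (9.87 ± 0.379), Pank2 (9.41 ± 0.273), Vnn1 (9.34 ± 5.15), Pank4 (7.56 ± 0.783), Ppcs (5.63 ± 0.495), Pank1 (2.17 ± 0.172), Ppcdc (1.54 ± 0.160) and Vnn3 (0.751 ± 0.377). Coasy and Pank2 overlapped within 1 SD of each mean, and the spread of Vnn1 reached from below Ppcs to above Coasy. The other neighbours lay apart by more than their SD. In the hairpin libraries Vnn1 dropped in this order to 2.09 ± 0.934 CPM per kilobase with shRNF185.1 and 1.35 ± 0.558 with shRNF185.3, next to Pank1 and Ppcdc. In the control libraries the membrane pantetheinase was therefore in the range of the synthesis enzymes, and Vnn3 was below all of them. The exonic length counts every annotated exon of a gene and overstates the length of genes with several transcripts.

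The tested genes around the pair differed from control by at most 0.51 on the log2 scale. Of the 5 annotated protein-coding genes on each side, 4 could be tested, all on the Vnn3 side. Slc18b1, a vesicular polyamine transporter whose gene ends 23494 bases before Vnn3, fell with both hairpins (edgeR log2 fold change -0.27, adjusted p = 0.00456, and -0.32, adjusted p = 0.00152). Tbpl1 fell by 0.20 and Eya4 rose by 0.51 on the log2 scale with shRNF185.3 (edgeR adjusted p = 0.0305 and 0.00242), and Rps12 passed with neither. The call of Tbpl1 was lost in 10 of 31 alternative settings. Tcf21 and the 5 trace amine receptor genes Taar1 to Taar5 were too low to test.

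Lists of other genes of coenzyme A metabolism give the setting. In each list below, genes called with 1 hairpin only are named after their values were seen, except in the carrier list. Of all genes tested, 14.6% rose and 14.3% fell with shRNF185.1, and 14.2% rose and 13.1% fell with shRNF185.3. With an offset for base composition and length, genes that rose made up 35.3% of the calls with shRNF185.3, instead of 51.8%. Among 7 genes of pantothenate and coenzyme A transport, 2 rose with shRNF185.1 and 2 rose and 1 fell with shRNF185.3. Abcd2, which carries very long acyl chains into peroxisomes, rose by 0.76 and 0.59 on the log2 scale with shRNF185.1 and shRNF185.3 (edgeR adjusted p = 0.000312 and 0.00304). Abcd3, a further peroxisomal carrier, fell by 0.16 with shRNF185.3 (edgeR adjusted p = 0.0154) and stood at -0.08 with shRNF185.1 (adjusted p = 0.190). Slc5a6, which imports pantothenate and was singled out for that role after its values were seen, had log2 fold changes of -0.28 and -0.34 and did not pass (edgeR adjusted p = 0.169 and 0.0981). The list medians were 0.11 and 0.01, against -0.02 and -0.02 over all genes.

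Calls among coenzyme A and pantetheine breakdown genes, a list that includes the vanin relative Btd, went both ways with shRNF185.1 and down with shRNF185.3. Of 5 tested of 6 listed, 2 rose and 2 fell with shRNF185.1 and 2 fell with shRNF185.3, with list medians of -0.12 and -0.28. Enpp1, a cell-surface nucleotide pyrophosphatase, fell by 0.93 with each hairpin (edgeR adjusted p = 0.000125 and 0.000128), from 21.5 ± 5.03 CPM in control to 11.3 ± 2.56 and 11.2 ± 0.646. Enpp3, its relative, fell by 0.84 and 0.45 (edgeR adjusted p = 3.9e-05 and 0.00802). Both act outside the cell, as Vnn1 does. Nudt7, the peroxisomal coenzyme A diphosphatase, rose by 0.91 with shRNF185.1 (edgeR adjusted p = 0.000698) from only 0.649 CPM in control and stood at 0.02 with shRNF185.3. Btd, the biotinidase related to the vanins in sequence, rose by 0.38 with shRNF185.1 (edgeR adjusted p = 0.00185) and did not pass with shRNF185.3 (0.20, adjusted p = 0.0823).

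Cysteamine, the other product of pantetheinases, is oxidised by Ado on the way to taurine. Of 4 tested of 6 listed genes of this route, 1 rose and 3 fell with shRNF185.1 and 1 fell with shRNF185.3, with medians of -0.20 and -0.07. Ado fell from 60.2 ± 2.76 CPM to 52.7 ± 2.50 and 47.2 ± 1.25 (edgeR log2 fold change -0.19, adjusted p = 0.00151, and -0.35, adjusted p = 4.79e-06). Csad, which feeds the route from cysteine, fell by 0.36 and the taurine transporter Slc6a6 by 0.21 with shRNF185.1 (edgeR adjusted p = 0.0104 and 0.00401). Fmo1, a monooxygenase that can make taurine, rose by 1.23 with shRNF185.1 (edgeR adjusted p = 0.00252). With shRNF185.3 these 3 stood at -0.07, -0.07 and 0.70 and did not pass.

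Proteins that carry the phosphopantetheine arm of coenzyme A showed few calls: of 6 tested, 1 fell with shRNF185.1 and 1 rose with shRNF185.3 (medians -0.09 and -0.10). Ndufab1, the mitochondrial acyl carrier protein, fell by 0.16 (edgeR adjusted p = 0.0313), and Aldh1l2, a mitochondrial folate enzyme, rose by 0.47 (edgeR adjusted p = 0.00156). Among 13 tested acyl-CoA synthetases, which load fatty acids onto coenzyme A, 2 rose and 1 fell with shRNF185.1 and 3 rose and 3 fell with shRNF185.3 (medians 0.07 and 0.02). Acss3, a mitochondrial short-chain synthetase, rose by 1.14 and 1.15 (edgeR adjusted p = 0.000723 and 0.000705) from 0.643 CPM, and Acsbg1 fell by 0.58 and 0.40 (edgeR adjusted p = 0.000633 and 0.0114). Acsl6 rose by 2.10 with shRNF185.1 (edgeR adjusted p = 6.53e-05) from only 0.228 CPM, with 0.688 to 2.29 over the settings tried. It stood at 0.69 with shRNF185.3 and did not pass (edgeR adjusted p = 0.162). With shRNF185.3 Acsl1 rose by 0.24 and Acsf3 by 0.20, while Acsl5 fell by 0.41 and Slc27a1 by 0.38 (edgeR adjusted p from 0.000194 to 0.0424). Of 7 tested thioesterases, which release the acid again, 2 fell with shRNF185.1 and 1 with shRNF185.3. Acot7 fell by 0.34 and 0.32 (edgeR adjusted p = 0.000388 and 0.000595), and Acot1 by 0.52 with shRNF185.1 (edgeR adjusted p = 0.0317). Among the genes of these 3 lists, alternative settings ended the call most often for Acsf3 (14 of 31), Acot1 (13), Ndufab1 (12) and Slc27a1 (8).

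Vnn1 is known in liver as a target of the fatty acid receptor PPAR alpha. Ppara itself was too low to test. Of 17 tested of 22 listed PPAR receptors and targets, 5 rose and 1 fell with shRNF185.1 and 2 rose and 1 fell with shRNF185.3, with medians of 0.05 and 0.01. Angptl4, an inhibitor of lipoprotein lipase, fell by 0.73 and 1.46 (edgeR adjusted p = 0.0110 and 4.08e-05). Ehhadh, a peroxisomal beta-oxidation enzyme, rose by 1.15 and 1.13 (edgeR adjusted p = 0.0229 and 0.0267) from only 0.177 CPM. The Ehhadh call was lost in 6 of 30 alternative settings with shRNF185.1 and 9 of 30 with shRNF185.3, and on the log2 scale of CPM plus 1 its changes were 0.25 and 0.24. With shRNF185.1 Ucp2, Cpt1a, Slc25a20 and Hadha also rose, by 0.34, 0.20, 0.17 and 0.16, and with shRNF185.3 the receptor partner Rxra rose by 0.24 (edgeR adjusted p from 0.00143 to 0.0270). Of these, Slc25a20 lost its call in 9 of 31 alternative settings.

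Cysteamine is also known to touch the glutathione system. Of 12 tested of 13 listed glutathione and antioxidant genes, 4 rose and 1 fell with each hairpin, in comparisons that share their control libraries. Ggt1, which splits glutathione outside the cell, rose by 0.63 and 0.78 (edgeR adjusted p = 0.00397 and 0.000754). Gclm, a subunit of the enzyme that starts glutathione synthesis, rose by 0.50 and 0.39 (edgeR adjusted p = 0.00221 and 0.0148), and the heme oxygenase Hmox1 by 0.31 and 0.32 (0.0441 and 0.0431). The sulfiredoxin Srxn1, outside the naming rule, rose by 0.41 and 0.20 (edgeR adjusted p = 5.59e-05 and 0.0208), the latter call lost in 6 of 31 alternative settings. Gsr, the glutathione reductase, fell by 0.29 and 0.23 (edgeR adjusted p = 3.76e-05 and 0.000488). The list medians were -0.01 and 0.03. Hmox1 lost its call in 18 of 31 alternative settings with shRNF185.1 and in 15 with shRNF185.3.

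**Figure D5:**
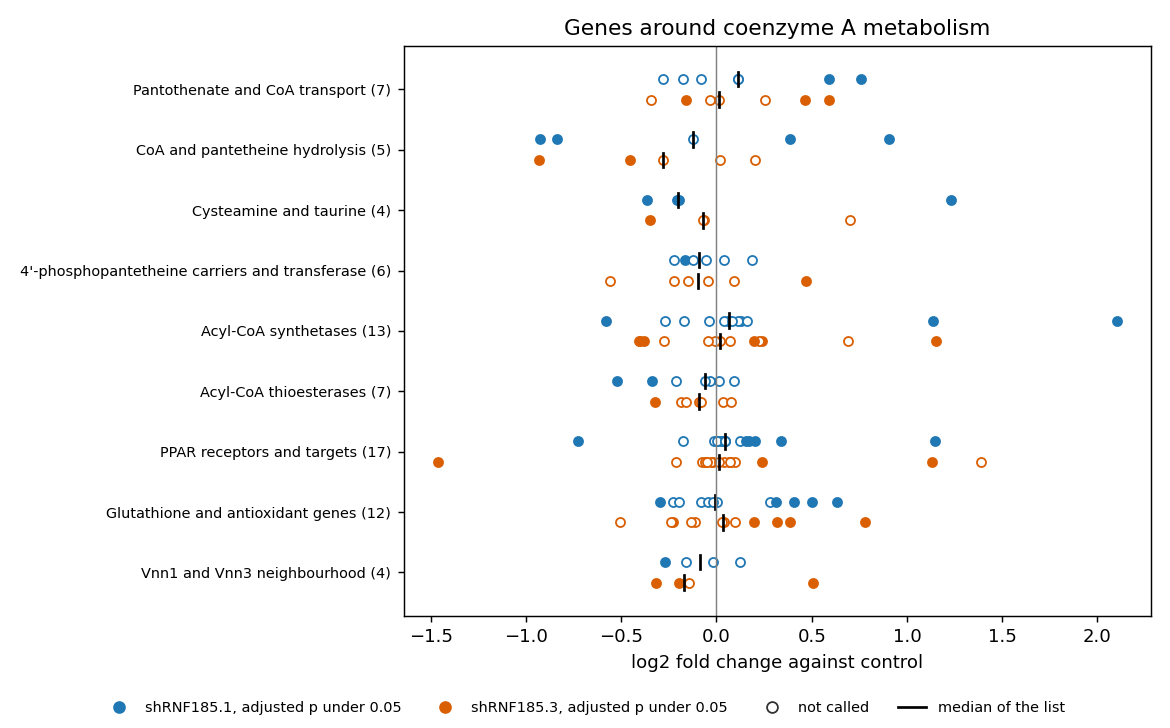
Log2 fold change of every tested gene of the 9 lists against control, with shRNF185.1 above and shRNF185.3 below in each row, filled where the edgeR adjusted p is under 0.05; bars are list medians and numbers in brackets count the tested genes. Single genes such as Angptl4, Enpp1 and the low Acsl6 (0.228 CPM in control) lie far out, while the list medians stay between -0.28 and 0.11.

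Markers of some cell types in which vanins are known were also measured. The 4 markers of kidney tubule and liver had at most 3 counts each in any library. Of 8 markers of myeloid and other immune cells, Ptprc, Adgre1 and Itgam had at most 3 counts and Cd3e had 0 in all libraries. Their summed level was 3.67 to 7.45 CPM in control, 2.34 to 4.06 with shRNF185.1 and 2.68 to 4.21 with shRNF185.3, made up mostly of Cd68 (44 to 145 counts) and S100a8 (9 to 61 counts). Both of these averaged higher in control. S100a8 fell with both hairpins (edgeR adjusted p = 0.00130 and 0.000309), and Cd68 passed with shRNF185.1 alone (edgeR adjusted p = 0.0117 and 0.0767). Of the markers too low to test, Csf1r (0.0466, 0.0791 and 0.111 CPM, at most 5 counts) and Itgam averaged lowest in control, and Ptprc averaged highest there. The part of these markers in the result was not tested.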

How the data were processed

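The authors deposited 2 tables for the 18 libraries. Estimated counts per gene, deposited by the authors after ComBat-Seq adjusted them for batch, per the labels, are expected counts (0.466% of values are not whole). The signal values (CPM) were scaled to library size with TMM by the authors after the same adjustment, as deposited, and their columns sum to 969986 to 1026394. Per the submitters' processing notes, cutadapt 2.3, STAR 2.7.0d, RSEM 1.3.1 and mm10 were used; strand setting, annotation and the model of the batch adjustment are not given in the sources used here. Per the labels' protocols, RNA was polyA-selected, libraries were stranded, and reads were 75 bases from 1 end.

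Counts were rounded to whole numbers, filtered (filterByExpr, minimum count 10), scaled by TMM and fitted over all 18 libraries with edgeR 4.0.16 in R 4.3.3 (quasi-likelihood F test, no covariate, Benjamini-Hochberg over 14309 genes, called at adjusted p under 0.05). The script was tested on simulated data. Counting intervals are not printed, since libraries are compared by their spread, and total counts per library set the precision. Symbols, coordinates and exonic lengths come from the GRCm38 annotation and microRNA sequences from RefSeq. Genes named beside the 9 were those of each list called with both hairpins in the same direction, up to 4 by size (with 1 hairpin where no gene had both), plus the 5 most alike to Vnn1 by each measure. Members, lists and tests were chosen with earlier results of these data known. Alternatives were DESeq2 1.42.0, limma 3.58.1, other scaling, filters and offsets, batch or replicate number in the model, and libraries left out. A check of 45 pairs of libraries within groups found none alike within counting noise (chi-square per gene 6.06 to 65.1). The labels do not say that a replicate number marks a shared culture or day, so the numbers were not treated as pairs. Correlations of same-numbered libraries of different groups ranged from -0.628 to 0.705. They cannot decide on pairing, since the batch adjustment can lower correlations within a batch. Some genes counted in the lists are not reported here by name.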

Additional observations from a re-analysis of the deposited data

Results flagged for a closer look

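Of 30 sets of log2 CPM values (the 9 genes and Rnf185 in 3 groups of 6), 2 had a library far from the others by Dixon's criterion, where chance gives about 1.5. Pank3 was highest in shRNF185.3 replicate 3, at a log2 CPM of 7.015 against 6.686 for the next library. Ppcs was lowest in shRNF185.1 replicate 2, at 3.008 against 3.165 for the next.

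Ppcs also differed between the hairpins by a log2 value of -0.3585 (edgeR adjusted p = 0.00270), while Rnf185 averaged 5.81 and 5.80 CPM with them. Of the libraries, 5 of 6 shRNF185.3 libraries and 0 of 6 shRNF185.1 libraries lay below the lowest control. Over all genes tested, 5.7% had all 6 shRNF185.3 libraries there, and the share with 5 of 6 was not counted.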

How the results depend on the processing

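No result changed direction while called. Vnn1 kept its sign in all 31 alternatives, at -2.73 to -1.63 with shRNF185.1, -3.43 to -2.18 with shRNF185.3 and -3.08 to -1.90 for their mean, and at -2.38 to -1.92, -3.01 to -2.57 and -2.68 to -2.24 when single libraries were left out. Calls among the other genes changed with the setting. In the order shRNF185.1, shRNF185.3, mean of both (of 8 each) and shRNF185.3 against shRNF185.1 (of 9), the fit of the report called 1, 2, 1 and 1 of them. Library size alone gave 2 for the mean and 2 between hairpins; no filter 0, 1 and 0 for the first 3; batch as covariate 1 with shRNF185.3 and 0 for the mean; the base composition and length offset 0, then 2 for the mean and 2 between hairpins; summed libraries 1 with shRNF185.3 and 2 between hairpins. Without batch 1 the first 3 counts were 0, 1 and 0, without batch 2 0 with shRNF185.1 and 2 for the mean, and without batch 3 all 4 were 0. Batch with odd or even number, chosen after seeing the data, gave 0 for the mean and 2 between hairpins. Leaving out single libraries gave 1 to 1, 1 to 2, 0 to 2 and 1 to 2 genes of these called. The cause was not tested.

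Over all genes, that fit called 4141, 3906, 4701 and 2098. Without batch 1 this was 2207, 2120, 2672 and 753; without batch 2 it was 1208 between hairpins; without batch 3 it was 2501 with shRNF185.3 and 3106 for the mean; these fits hold fewer libraries. Without single libraries it was 3692 to 4215, 3338 to 3995, 4120 to 4797 and 1696 to 2283. The interaction of group and batch called 1404 genes and 0 of the 9, but 3169 genes and 2 of the 9 with no filter, where Vnn1 had an adjusted p of 4.76e-29 in edgeR; the cause was not tested. The offset for base composition and length moved the share of calls that are higher from 51.8% to 35.3% with shRNF185.3, 48.9% to 36.7% for the mean and 52.7% to 41.7% between hairpins; with it Coasy passed with shRNF185.3 (-0.22, edgeR adjusted p = 0.00245).

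Same-numbered libraries of different groups had a mean correlation of deviations of -0.0144 over 18 pairs. It was -0.434 for the other number of the same batch and 0.111 for other batches. Of 18 libraries, 2 were closest to their own number. The counts had already been adjusted for batch, which can lower correlations within a batch, so this check cannot decide on pairing. The odd-numbered library was higher in all 9 pairs for 5.36% of genes tested and lower in all 9 for 5.06%. With the replicate number as a block, 3811, 3578, 4304 and 1976 genes were called, 1 of 8 passed with shRNF185.3 and 2 of 9 between hairpins, where Pank4 (-0.19, edgeR adjusted p = 0.0138) joined Ppcs. Of the list genes called, 10 of 28 with shRNF185.1 and 9 of 25 with shRNF185.3 kept the call in every alternative. Depth limits Vnn3 most, at 10 to 62 counts per library.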
